A study of Mus musculus with 6 samples.

Results

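The genes described here are 10 genes of the interferon system: the 4 chains of the interferon receptors (Ifnar1, Ifnar2, Ifngr1 and Ifngr2) and 6 interferon regulatory factors (Irf1, Irf2, Irf3, Irf5, Irf7 and Irf9). They were chosen by symbol, by a rule that uses no measured value, from the 23557 genes of the expression table, and Irf4 and Irf8 were not included. The samples were tumors of CT26 cells, a colorectal carcinoma line derived from BALB/c mice, grown in syngeneic BALB/c mice after the subcutaneous injection of 500000 cells. The mice were 7-week-old females with no engineered allele named. H89, a multikinase inhibitor best known for its action on protein kinase A, was given by intraperitoneal injection 2 times a week at a dose of 10 mg/kg, and control mice received NaCl alone. RNA came from 3 NaCl tumors and 3 H89-treated tumors removed on day 14 and held the RNA of the tumor cells and of all host cells within the mass. The question was whether H89 treatment changed the levels of these transcripts in the tumor.

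Interferons signal through paired receptor chains. Type I interferons bind IFNAR1 and IFNAR2, and interferon-gamma binds IFNGR1 and IFNGR2. Kinases bound to these chains phosphorylate STAT proteins, which join IRF9 in the complex ISGF3, which binds interferon-stimulated response elements (ISRE), whereas STAT dimers bind gamma-activated sites (GAS). IRF3 is made constitutively and is activated by phosphorylation downstream of nucleic acid sensors, while IRF7, IRF9 and IRF1 are themselves interferon-induced genes. In tumors the system is known for antigen presentation and for the recruitment of T cells.

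To show which of the genes carry such elements near their start, motifs were searched in the RefSeq promoter windows (GRCm38.p6, 250 bases before to 50 bases after each transcription start). All 10 genes had a window, and Irf1 and Irf9 had 2. The GAS core was written TTCNNNGAA, which reads the same on both strands, and the ISRE core as GAAA followed by any 2 bases and a second GAAA, searched on both strands. The GAS core was found in 4 of the 10 genes, Ifnar1, Ifnar2, Irf1 and Irf2, and in 9.6% of the 27025 genes with a window. The ISRE core was found in 1 of the 10, Irf2, and in 4.0% of all genes. The matches are given below with 10 bases on each side (9 before the ISRE match of Irf2, where the window begins), on the + strand and in the direction of the gene, with the motif in capitals. They lie at chr11:53769914-53769942 for Irf1, at chr8:46739495-46739523 for the ISRE match of Irf2, at chr8:46739511-46739539 for its GAS match, at chr16:91372559-91372587 for Ifnar2 and at chr16:91485200-91485228 for Ifnar1.
Irf1, GAS core: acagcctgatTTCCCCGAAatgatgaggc
Irf2, ISRE core: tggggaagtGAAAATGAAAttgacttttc
Irf2, GAS core: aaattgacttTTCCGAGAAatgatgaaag
Ifnar2, GAS core: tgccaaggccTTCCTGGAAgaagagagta
Ifnar1, GAS core: ggcgggggcgTTCACGGAAggggcggggc
The first base of the motif lay at -90 from the start of Irf1, at -241 and -224 from the start of Irf2 and at -214 from the start of Ifnar2. That of Ifnar1 lay at -5, so that the match runs past the start. The match of Ifnar2 also met a stricter form, TTCCNGGAA, held by 1.3% of all genes. A match of letters does not show that a factor binds there, and the other windows hold no match to these letters.

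Levels are given as CPM, the estimated count of a gene per 1000000 counts of its tumor, and the tumors' totals ranged from 27067349 to 31958793 counts. H89-treated and NaCl tumors were compared with edgeR's quasi-likelihood test on 13118 genes with a mean of at least 0.5 CPM, and p-values were adjusted over all of them by the Benjamini-Hochberg method. All 10 genes passed that filter. An exact two-sided permutation test of 3 against 3 tumors cannot give a p below 0.1, the smallest over its 10 splits. The edgeR p-values weigh the difference between the groups against the variation between tumors.

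**Figure D1:**
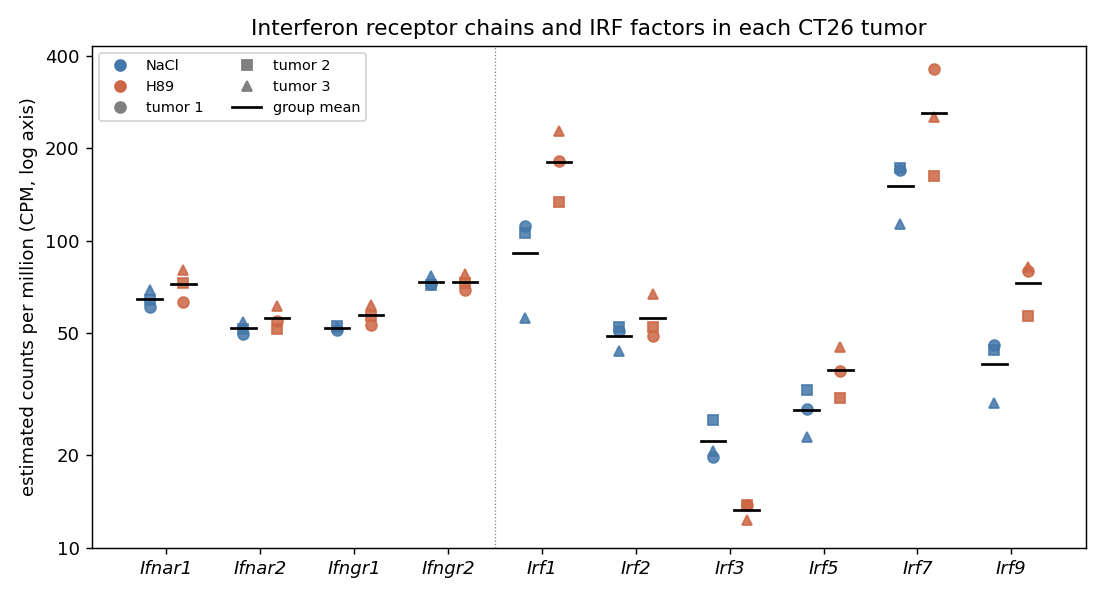
Level of each gene in each tumor, in CPM on a log axis. Blue is NaCl and red H89, the shape of the point is the tumor number and the bar is the mean of 3 tumors. The 4 receptor chains lie between 49.5 and 80.5 CPM in every tumor, Irf3 is lower in all 3 H89-treated tumors and Irf1 and Irf9 are higher in all 3.

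At an adjusted p under 0.05, Irf3 was lower in H89-treated tumors and none of the 10 genes was higher, where 0.724% of all genes tested were called lower, 0.861% higher and 1.59% in either direction. DESeq2 on the same genes called 3 of the 10, Irf3 lower and Irf1 and Irf9 higher, beside 10.6% of all genes called, 5.32% higher and 5.30% lower. With all genes above 0 in place of the filter it called 3 again, beside 10.4% of the genes. After Bonferroni adjustment edgeR called 0 of the 10 and 0.0% of all genes, whereas DESeq2, the study's own tool with its own adjustment, called 1 of the 10, Irf3 (adjusted p = 0.00563), and 1.53% of all genes. The study's selection also required an absolute log fold change above 1, a cutoff not applied here. Irf3, at a DESeq2 log2 fold change of -0.81, does not reach it. At an unadjusted p under 0.05 in edgeR, Irf1, Irf7 and Irf9 were higher and Irf3 lower, 4 of 10 beside 25.0% of all genes (13.1% higher, 11.9% lower). The CPM of the groups did not overlap for Ifngr1, Irf1 and Irf9, which were above, and for Irf3, which was below. Over all genes tested, 20.5% lay above and 10.0% below in this way, 30.5% in all, and with TMM factors, which correct for composition, 15.2% and 15.5%. The median log2 fold change was 0.05 for the receptor chains and 0.54 for the factors, beside 0.004 over all genes tested. In these whole tumors, fewer cells of a type and less RNA per cell cannot be told apart.

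The receptor chains differed little between the groups. IFNAR1 is the chain that binds the kinase TYK2. Ifnar1 (chr16:91485238-91507441, GRCm38, + strand) measured 61.0, 63.9 and 69.0 CPM in NaCl tumors 1 to 3 and 63.0, 73.0 and 80.5 CPM in H89-treated tumors 1 to 3. H89-treated tumor 1 lay within the NaCl range and the others above it. The log2 fold change was 0.09 with a 95% interval from -0.12 to 0.29, which is 0.92-fold to 1.23-fold (edgeR adjusted p = 0.587). IFNAR2 is the high-affinity chain, which binds JAK1. Ifnar2 (chr16:91372783-91405589, + strand) measured 49.5, 51.6 and 54.3 CPM in NaCl tumors and 54.9, 51.6 and 61.3 CPM in H89-treated tumors. The groups overlapped, since H89-treated tumor 2 was at the NaCl median, and the log2 fold change was 0.04, with an interval from -0.16 to 0.24 (adjusted p = 0.798).

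IFNGR1 is the ligand-binding chain of the interferon-gamma receptor. Ifngr1 (chr10:19591949-19610229, + strand) measured 51.0, 52.7 and 52.4 CPM in NaCl tumors and 53.0, 57.0 and 61.8 CPM in H89-treated tumors. All 3 H89-treated tumors were above the NaCl tumors, the lowest of them by less than the NaCl range. The log2 fold change was 0.07, with an interval from -0.10 to 0.24 (edgeR adjusted p = 0.600). IFNGR2, the second chain, carries JAK2. Ifngr2 (chr16:91547072-91565623, + strand) measured 72.2, 71.8 and 76.9 CPM in NaCl tumors and 69.0, 72.6 and 77.9 CPM in H89-treated tumors. Its groups overlapped, and the log2 fold change of -0.08 had an interval from -0.25 to 0.09, or 0.84-fold to 1.06-fold (adjusted p = 0.527). For each of the 4 chains the interval therefore left out a change beyond 1.23-fold in either direction.

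IRF3 turns the signal of cytosolic and endosomal nucleic acid sensors into transcription of type I interferon genes. Irf3 (chr7:44997648-45002848, + strand) measured 19.8, 26.1 and 20.6 CPM in NaCl tumors 1 to 3 and 13.8, 13.8 and 12.3 CPM in H89-treated tumors 1 to 3. Every H89-treated tumor was below every NaCl tumor, and the H89-treated tumors lay closer together, at 13.3 ± 0.844 CPM (SD, n = 3) against 22.2 ± 3.39 CPM (SD, n = 3). The level was 0.57-fold that of NaCl tumors, a log2 fold change of -0.81 (SE 0.14, interval -1.13 to -0.49, edgeR adjusted p = 0.0427), and Irf3 ranked 126 by p among the genes tested. The direction was kept without any 1 of the 6 tumors, with log2 fold changes from -0.87 to -0.69. The edgeR adjusted p then rose to between 0.0667 and 0.142, so the call was lost in all 6 such fits, in which 0 to 12 of all genes were called.

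Exons of Irf3 overlap those of Bcl2l12 on the opposite strand, and the strand setting of the libraries is not given in the sources used here. Bcl2l12 measured 6.97, 5.89 and 4.28 CPM in NaCl tumors and 7.59, 5.40 and 4.99 CPM in H89-treated tumors (log2 fold change 0.01, SE 0.26, edgeR adjusted p = 0.992). The sum of both genes, which does not depend on how shared reads were split between them, was 27.9 ± 3.65 CPM (SD, n = 3) in NaCl and 19.3 ± 2.03 CPM (SD, n = 3) in H89-treated tumors, again without overlap.

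IRF1 is induced by interferon-gamma and activates genes of antigen processing. Irf1 (chr11:53770014-53778374, + strand) measured 112, 106 and 55.8 CPM in NaCl tumors and 182, 134 and 228 CPM in H89-treated tumors. All H89-treated tumors were above all NaCl tumors, and NaCl tumor 3 was well below the other NaCl tumors. The log2 fold change was 0.92 (SE 0.28, interval 0.27 to 1.56), and the edgeR adjusted p was 0.106, beyond the threshold. Without NaCl tumor 3 the log2 fold change was 0.66. DESeq2 gave an adjusted p of 0.00663. IRF2 competes with IRF1 for the same sites and is mostly described as a repressor. Irf2 (chr8:46739732-46847458, + strand) measured 50.8, 52.2 and 43.6 CPM in NaCl tumors and 48.9, 52.2 and 66.9 CPM in H89-treated tumors. The groups overlapped, H89-treated tumor 3 was the highest, and the log2 fold change was 0.12 (SE 0.12, edgeR adjusted p = 0.566).

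IRF9 is the DNA-binding subunit of ISGF3. Irf9 (chr14:55603571-55610030, + strand) measured 45.7, 44.0 and 29.5 CPM in NaCl tumors and 79.9, 56.7 and 82.2 CPM in H89-treated tumors. As for Irf1, the groups did not overlap and NaCl tumor 3 was the lowest. The log2 fold change was 0.81 (SE 0.20, interval 0.34 to 1.27), with an adjusted p of 0.0800 in edgeR and 0.0026 in DESeq2. It ranged from 0.63 to 0.96 when 1 tumor was left out. Exons of Irf9 overlap those of Rnf31 on the same strand, and the sum of both was 87.1 ± 18.3 CPM (SD, n = 3) in NaCl and 132 ± 22.2 CPM (SD, n = 3) in H89-treated tumors, with ranges of 67.5 to 104 and 107 to 147 CPM.

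IRF7 amplifies the type I interferon response and is highly expressed in plasmacytoid dendritic cells. Irf7 (chr7:141262706-141266481, - strand) measured 170, 172 and 113 CPM in NaCl tumors and 364, 162 and 253 CPM in H89-treated tumors. The groups overlapped, because H89-treated tumor 2 lay within the NaCl range while H89-treated tumors 1 and 3 lay above it. The log2 fold change was 0.72 (SE 0.30, interval 0.03 to 1.41, edgeR adjusted p = 0.187). It fell to 0.35 without H89-treated tumor 1 and was 0.97 without H89-treated tumor 2. IRF5 acts downstream of Toll-like receptors, mainly in macrophages and dendritic cells. Irf5 (chr6:29526625-29541871, + strand) measured 28.3, 32.6 and 23.0 CPM in NaCl tumors and 37.6, 30.8 and 44.9 CPM in H89-treated tumors. Again H89-treated tumor 2 lay within the NaCl range, and the log2 fold change was 0.36 (SE 0.16, interval -0.02 to 0.74, edgeR adjusted p = 0.217). Exons of Irf7 and Irf5 overlap those of Phrf1 and Tnpo3 on the opposite strand, whose log2 fold changes were -0.01 and 0.04 (edgeR adjusted p = 0.964 and 0.808). Exons of Irf1 and Ifnar2 overlap those of Gm17334 and Gm21970, which were not analysed here.

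**Figure D2:**
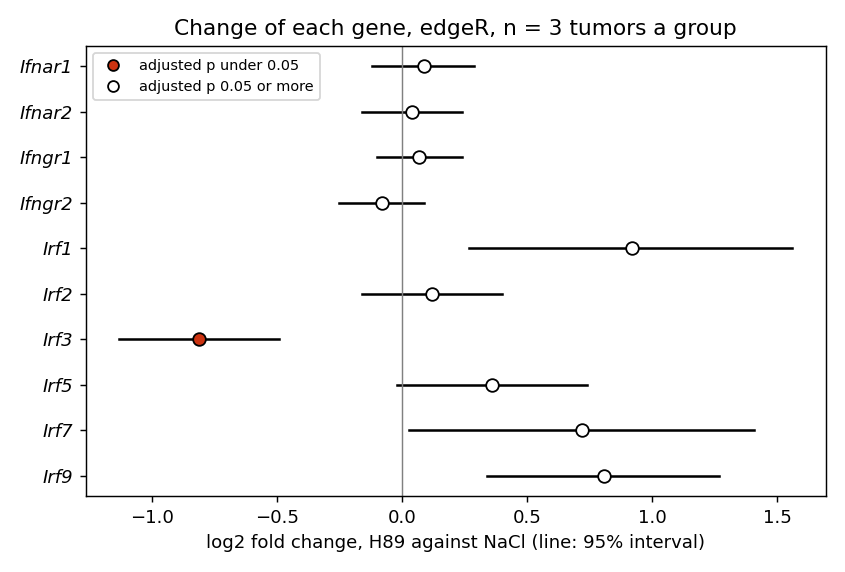
Log2 fold change of each gene, H89 against NaCl, from edgeR over 3 tumors a group, with its 95% interval as a line. Irf3 (red) has an adjusted p under 0.05. The intervals of Irf1, Irf7 and Irf9 lie above 0, their adjusted p-values are 0.106, 0.187 and 0.0800, and the 4 receptor chains have the shortest intervals.

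The tumors were not alike within a group. H89-treated tumor 3 had the highest CPM for 8 of the 10 genes and NaCl tumor 3 the lowest for 5. H89-treated tumors 1, 2 and 3 were above all NaCl tumors for 6, 5 and 9 of the genes. These counts use CPM without TMM factors, which were largest for H89-treated tumor 3 (1.063) and smallest for NaCl tumor 1 (0.956). The same counts over all genes were not taken, so they do not set these genes apart. The summed CPM of the 6 factors was 426, 433 and 285 in NaCl tumors 1 to 3 and 726, 450 and 687 in H89-treated tumors 1 to 3, so that H89-treated tumor 2 was close to NaCl tumors 1 and 2. That of the 4 receptor chains was 234, 240 and 253 in NaCl tumors and 240, 254 and 282 in H89-treated tumors.

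Ratios between genes within a tumor do not depend on how tumors are scaled against each other, and 6 ratios of estimated counts were compared. The ratio Irf9:Irf3 was 2.30, 1.69 and 1.43 in NaCl tumors and 5.81, 4.12 and 6.69 in H89-treated tumors, 3.07-fold higher. The ratio Irf7:Irf3 was 8.54, 6.59 and 5.45 in NaCl tumors and 26.5, 11.8 and 20.6 in H89-treated tumors, 2.75-fold higher. For Irf5:Irf3 the values were 1.43, 1.25 and 1.11 against 2.74, 2.24 and 3.65, 2.24-fold higher. In all 3 of these ratios every H89-treated tumor was above every NaCl tumor, H89-treated tumor 2 included, and all share Irf3 as their denominator. In H89-treated tumor 2, Irf7 (162 CPM) and Irf5 (30.8 CPM) lay within their NaCl ranges, and Irf3 (13.8 CPM) lay below its own. Such counts were not taken for other pairs of genes. Irf1:Irf2, the activator against the related repressor, was 2.20, 2.03 and 1.28 in NaCl tumors and 3.72, 2.57 and 3.41 in H89-treated tumors, 1.79-fold higher and again without overlap.

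Between the paired chains, Ifngr2:Ifngr1 was 1.42, 1.36 and 1.47 in NaCl tumors and 1.30, 1.27 and 1.26 in H89-treated tumors. This ratio was 0.90-fold that of NaCl tumors, with no overlap. Ifnar2:Ifnar1 was 0.812, 0.809 and 0.786 against 0.871, 0.707 and 0.762, with NaCl values inside the H89 range. The exact permutation p was 0.1, the smallest possible, for the 5 ratios whose groups did not overlap and 0.7 for Ifnar2:Ifnar1, or 0.12 and 0.7 after Benjamini-Hochberg adjustment over the 6 ratios, and this design could not reach 0.05.

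**Figure D3:**
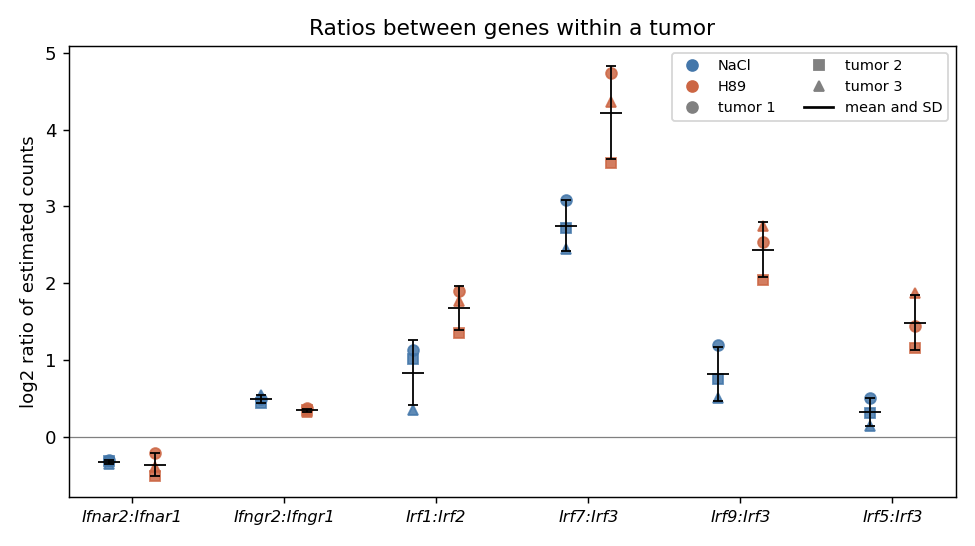
Log2 ratio of estimated counts for 6 pairs of genes in each tumor, with the mean and SD of 3 tumors. Blue is NaCl and red H89. The ratios to Irf3 and Irf1:Irf2 are higher in every H89-treated tumor, Ifngr2:Ifngr1 is slightly lower in every one, and Ifnar2:Ifnar1 overlaps.

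Levels were compared between genes only per length, as TPM, which divides a count by the transcript's length and scales each tumor to a sum of 1000000, recomputed with the longest annotated transcript of each gene. In NaCl tumors Irf7 at 109 ± 24.7 TPM and Irf1 at 99.8 ± 33.8 TPM (SD, n = 3) were the most abundant of the 10, with overlapping ranges. Ifngr1 followed at 57.6 TPM, Ifngr2 at 46.4 TPM, Ifnar2 at 39.8 TPM and Ifnar1 at 38.7 TPM, of which only Ifnar2 and Ifnar1 overlapped as neighbours. The lowest were Irf5 at 29.2 TPM, Irf2 at 28.8 TPM, Irf3 at 25.6 TPM and Irf9 at 24.0 TPM, with overlapping ranges between neighbours.

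In H89-treated tumors Irf1 at 216 ± 50.4 TPM and Irf7 at 204 ± 76.9 TPM (SD, n = 3) were again the most abundant and overlapped. Below Ifngr1 at 69.3 TPM, the ranges of Ifngr2, Irf9, Ifnar1, Ifnar2, Irf5 and Irf2 overlapped from neighbour to neighbour, from 50.4 TPM for Ifngr2 to 36.0 TPM for Irf2. Irf9 stood at place 5 of 10 at 48.0 TPM, against place 10 in NaCl tumors, but with the median transcript length in place of the longest it stood at place 8, against place 10. Irf3 was the lowest at 16.7 ± 1.42 TPM (SD, n = 3), and its range did not meet that of Irf2. With that length, 5 of the 10 genes kept their place in NaCl and 1 in H89-treated tumors, Irf2 moved to place 3 in both, and Irf1 and Irf7 remained the first pair.

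The genes whose pattern over the 6 tumors was most like each factor were found by the root mean square difference of log2(CPM + 0.5), each gene centred on its own mean. For Irf7, which itself deviated from its mean by 0.534, they were Ifit1 (0.055), Isg15 (0.070) and Oas1h (0.109). For Irf1, with a deviation of 0.641, they were Nlrc5 (0.079), Uba7 (0.085) and H2-Q7 (0.089). For Irf9, with 0.510, they were Tbc1d10c (0.044), Trim12c (0.077) and Klrb1f (0.088). Irf3 had no gene as close: the nearest were 2200002D01Rik (0.114), Gm6139 (0.125) and Slc7a5 (0.126), against its own deviation of 0.379, and the nearest of the other 9 genes, Ifngr2, differed by 0.390. Irf5 lay nearest to Ccdc88b, Phxr4 and Stxbp2 (0.062 to 0.066, own deviation 0.300) and Irf2 to Dusp23, Entpd4 and Sh2d3c (0.031 to 0.041, own 0.183). The receptor chains lay within 0.029 of genes that varied as little: Kif16b, Iws1 and Ipo8 for Ifnar1, Zfp82, Bfsp1 and Rab21 for Ifnar2, Sec23ip, Terf1 and Stx12 for Ifngr1, and Spast, Prdm2 and Wdr33 for Ifngr2. The edgeR log2 fold changes of Oas1h, 1.67, and Klrb1f, 1.44, were larger than those of Irf7, 0.72, and Irf9, 0.81. The 0.5 added to CPM shrinks the changes of genes at low levels. These likenesses describe 6 tumors and carry no test.

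Of the ligands, 1 of 21 genes, Ifng, passed the filter, and 13 were at 0 in all tumors. Ifng measured 0.998, 0.665 and 0.0717 CPM in NaCl tumors and 1.79, 0.595 and 2.46 CPM in H89-treated tumors, with overlap (log2 fold change 1.39, SE 0.74, edgeR adjusted p = 0.283). Ifnb1, which encodes interferon-beta and was below the filter, was at or under 0.0739 CPM in NaCl tumors and measured 0.210, 0.0939 and 0.194 CPM in H89-treated tumors. These values rest on 1, 2 and 0 estimated counts in NaCl tumors and 6, 3 and 6 in H89-treated tumors. Ifne, also below the filter, went the other way, at 1 count in each NaCl tumor and 0 in each H89-treated tumor. Il10rb, the chain that type III interferon receptors share with the IL-10 receptor, measured 31.0, 35.7 and 36.5 CPM against 43.8, 43.5 and 42.7 CPM (log2 fold change 0.27, SE 0.09, edgeR adjusted p = 0.132). Its H89-treated tumors were all above the NaCl tumors.

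The 6 kinases and STATs that act at these receptors all had positive log2 fold changes, beside 6638 of the 13118 genes tested. In edgeR 0 were called and 2 were higher at an unadjusted p under 0.05, and DESeq2 called 1 higher. Of all genes tested, 0.861% and 13.1% were higher in this way in edgeR, and 5.32% in DESeq2. Stat2, which joins IRF9 in ISGF3, measured 74.5, 71.0 and 39.3 CPM in NaCl tumors and 187, 96.2 and 172 CPM in H89-treated tumors (log2 fold change 1.23, SE 0.31, edgeR adjusted p = 0.0800). The paper, using DESeq2, names STAT2 among the immune genes significantly raised with H89. Jak1, Jak2, Tyk2 and Stat3 lay between 0.16 and 0.20. As with Irf1 and Irf9, NaCl tumor 3 was the lowest tumor for Stat2, and among H89-treated tumors number 2 was the lowest.

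Upstream of IRF3, IRF5 and IRF7, 1 of 23 sensors, adaptors and kinases was called higher and none lower. It was Tbk1, the kinase that phosphorylates IRF3 and IRF7, at 26.9, 28.5 and 28.2 CPM in NaCl tumors and 38.6, 40.4 and 46.6 CPM in H89-treated tumors (log2 fold change 0.51, SE 0.08, edgeR adjusted p = 0.0413). For Tbk1 as for Irf3 the groups did not overlap, in opposite directions. At an unadjusted p under 0.05, 10 of the 23 were higher and 1, the adaptor gene Mavs, was lower, and DESeq2 called 7 higher. Over all genes tested, 13.1% were higher and 11.9% lower at that p. For all genes, edgeR called 0.861% higher, and DESeq2 called 5.32% higher and 5.30% lower. The largest log2 fold changes were those of the endosomal DNA sensor Tlr9, 1.18 (adjusted p = 0.136), and of the nucleic acid sensor Zbp1, 1.16 (adjusted p = 0.161). Among 14 negative regulators and IRF cofactors, 0 were called in either direction in edgeR, and DESeq2 called 2 higher and 1 lower. At an unadjusted p under 0.05, 3 (Usp18, Ptpn6 and Trim21) were higher and 2 lower. These counts stand beside the same shares of all genes. Trim21, a ubiquitin ligase that acts on IRF proteins, had a log2 fold change of 0.75 (adjusted p = 0.139), and Usp18, which shields IFNAR2 from JAK1, one of 0.74 (adjusted p = 0.145). The median log2 fold change was 0.30 for the sensors, adaptors and kinases and -0.03 for the regulators.

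Downstream, 2 of 24 known ISGF3 targets were called higher and none lower, and 15 were higher at an unadjusted p under 0.05, beside 0.861% and 13.1% of all genes tested. All 24 had positive log2 fold changes, with a median of 0.76. Those called were Samd9l, an antiviral factor, at 48.4, 58.8 and 45.9 CPM in NaCl tumors and 145, 92.5 and 122 CPM in H89-treated tumors (log2 fold change 1.17, edgeR adjusted p = 0.0407), and the helicase gene Ddx60, at 11.6, 14.3 and 9.78 CPM against 28.9, 21.2 and 40.9 CPM (log2 fold change 1.27, adjusted p = 0.0481). Oas2, which makes the activator of RNase L, had a log2 fold change of 1.31 (adjusted p = 0.0543). DESeq2 called 11 of the 24 higher, beside 5.32% of all genes. Of 24 tested genes that answer to interferon-gamma and IRF1, 0 were called in edgeR and 3 in DESeq2, 14 were higher at an unadjusted p under 0.05, and all 24 had positive log2 fold changes, with a median of 0.94. Ciita, the master regulator of MHC class II genes, had the largest, 1.87 (adjusted p = 0.111), followed by the guanylate-binding protein gene Gbp7, 1.45 (adjusted p = 0.105).

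**Figure D4:**
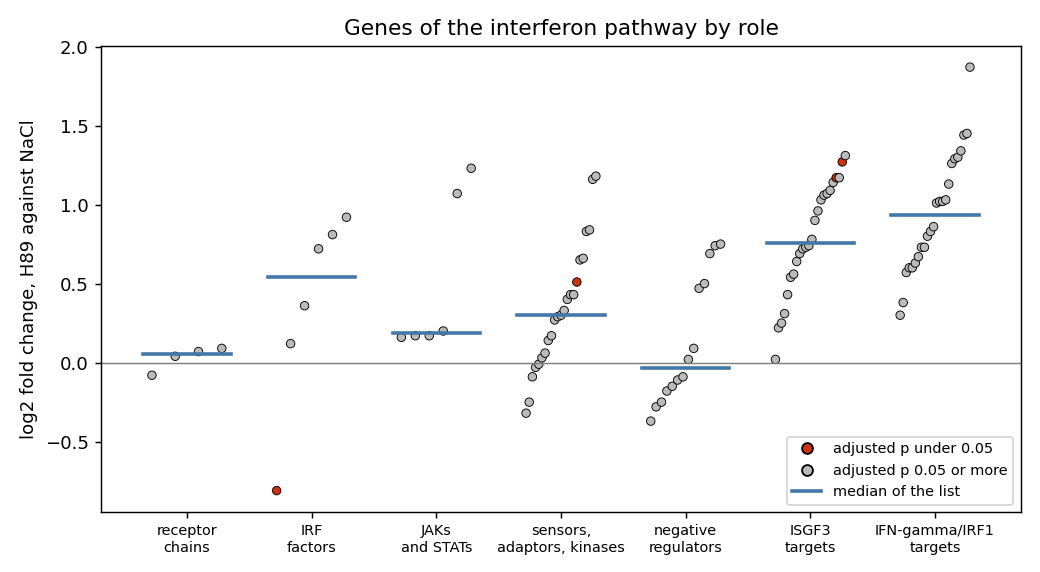
Log2 fold change, H89 against NaCl, of each tested gene of the interferon pathway by role, from edgeR over 3 tumors a group. A bar is the median of a list and red points, among them Irf3, have an adjusted p under 0.05. Medians run from 0.05 for the receptor chains and -0.03 for the negative regulators to 0.76 and 0.94 for the ISGF3 targets and the genes that answer to interferon-gamma and IRF1.

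Markers of host cells are given beside the factors, as the summed CPM of each list in NaCl and then in H89-treated tumors. Counts of marker genes stand beside 13.1% of all genes tested that were higher at an unadjusted p under 0.05. Of all genes, edgeR called 0.861% higher and DESeq2 5.32%. T cell markers summed to 17.7 to 39.3 and 35.7 to 96.7 CPM, with positive log2 fold changes in 9 of 9 tested genes, 6 at an unadjusted p under 0.05, 0 called in edgeR and 3 in DESeq2. The 6 NK and cytotoxic lymphocyte markers summed to 12.2 to 72.3 and 40.3 to 147 CPM. All 6 had positive log2 fold changes, 3 at an unadjusted p under 0.05, with 0 called in edgeR and 3 in DESeq2. Their sum in NaCl tumor 1, 72.3 CPM, was above those in H89-treated tumors 1 and 2, 55.6 and 40.3 CPM. The T cell and NK sums overlapped between the groups. Like Irf1 and Irf9, the T cell, NK, pan-leukocyte and conventional dendritic cell sums were lowest in NaCl tumor 3 and highest in H89-treated tumor 3. The sums of the 4 pan-leukocyte markers also overlapped, at 316 to 408 and 361 to 549 CPM. Of these, Ptprc measured 24.1, 31.2 and 29.3 CPM in NaCl tumors and 47.3, 48.6 and 83.7 CPM in H89-treated tumors (log2 fold change 1.01, edgeR adjusted p = 0.0547). The more abundant Laptm5 and Coro1a overlapped, with log2 fold changes of -0.03 (adjusted p = 0.911) and 0.33 (adjusted p = 0.301). Cd52 measured 35.7, 40.3 and 15.6 CPM in NaCl tumors and 73.0, 41.5 and 74.0 CPM in H89-treated tumors, without overlap. Ptprc and Cd52 were higher at an unadjusted p under 0.05, with 0 of the 4 called in edgeR and 1 in DESeq2.

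Plasmacytoid dendritic cell markers summed to 156 to 242 and 197 to 405 CPM, most of it Bst2, which is also an ISGF3 target. Of the 5 tested, 4 had positive log2 fold changes, and Siglech, Klk1 and Pacsin1 were higher at an unadjusted p under 0.05, without overlap. Cox6a2 was called lower in edgeR, and DESeq2 called 2 higher and 1 lower. Conventional dendritic cell markers summed to 10.8 to 13.6 and 17.8 to 21.6 CPM, without overlap, with 1 of 5 tested genes, Itgae, called higher in edgeR. All 5 had positive log2 fold changes, 4 at an unadjusted p under 0.05, and DESeq2 called 2 higher.

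The 10 macrophage and monocyte markers overlapped, at 2180 to 3480 and 2650 to 3440 CPM, with a median log2 fold change of 0.02, 0 called in edgeR or DESeq2 and 0 at an unadjusted p under 0.05. In CPM without TMM factors, the sums of 3 other lists did not overlap and were higher in H89-treated tumors. Of single genes tested, 20.5% lay above in this way, and 15.2% with TMM factors. Fibroblast markers summed to 2430 to 2590 and 2950 to 3500 CPM, with positive log2 fold changes in 6 of 6 genes, 3 at an unadjusted p under 0.05, 0 called in edgeR and 2 in DESeq2. Neutrophil markers summed to 15.4 to 20.2 and 20.9 to 36.7 CPM, but 2 of 4 tested genes were positive and 2 negative, with a median log2 fold change of -0.20. The gap lay between 20.2 CPM in NaCl tumor 3 and 20.9 CPM in H89-treated tumor 2, whose TMM factors were 0.981 and 1.03. Dividing by these factors would reverse that order. The positive genes were Csf3r, the most abundant, at 0.90 (edgeR adjusted p = 0.0682), and Cxcr2, at 0.29 (edgeR adjusted p = 0.358). The negative genes, S100a8 and S100a9, had means of 1.15 and 2.33 CPM in NaCl and 0.675 and 1.54 CPM in H89-treated tumors, with overlap. B cell markers summed to 1.34 to 1.94 and 2.42 to 3.79 CPM, and 2 of 6 passed the filter. Endothelial markers overlapped, at 80.5 to 140 and 70.1 to 113 CPM. Skeletal muscle markers reached 19.7 CPM in H89-treated tumor 1, in which Irf7 was highest, and at most 2.79 CPM in the other tumors. No marker of these lists was at 0 in all tumors, and the part of these cells in the levels of the IRF factors was not tested.

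The 10 colon epithelial genes, a check of the labelled line, summed to 114 to 128 and 87.1 to 103 CPM, without overlap. Most of the sum was Krt20, with means of 96.2 and 72.9 CPM. Of 6 tested, 4 had positive and 2 negative log2 fold changes, with a median of 0.15. The 2 were Krt20, at -0.47 (edgeR adjusted p = 0.0627), and Krt18, at -1.04 (adjusted p = 0.0653). Both were lower at an unadjusted p under 0.05, beside 11.9% of all genes tested, and edgeR called 0 of the 6. DESeq2 called 2 of the 6 lower, beside 5.30% of all genes. The paper, using DESeq2, names Krt18 among the cancer-associated genes lowered with H89. Epcam, Cdx1, Cdx2 and Vil1 were below the filter in these tumors of a colorectal line.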

How the data were processed

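Total RNA of 6 frozen CT26 tumors was sequenced by the authors on the BGISEQ-500 platform. Their processing notes name kallisto, DESeq2 and GRCm38, with no versions, and the strand setting and annotation are not given in the sources used here. The deposited table is called TPM, but its values are estimated counts: a tumor's values sum to between 27067349 and 31958793, not to 1000000 as TPM would, and 58.6% to 61.4% of the nonzero values per tumor fall within 0.01 of an integer. The authors compared the groups with DESeq2 and Bonferroni adjustment, and their selection of genes also used the fold change cutoff given above.

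Groups came from the sample titles. Counts were rounded, and genes with a mean of at least 0.5 CPM (13118 of 23557) were fitted in R 4.3.3 with edgeR 4.0.16 (TMM factors 0.956 to 1.063, glmQLFit, glmQLFTest, treatment as the only term). Adjusted p-values are Benjamini-Hochberg values over all 13118 genes. The alternatives, with limma 3.58.1 and DESeq2 1.42.0, are given in the closing section. Gene positions are those of GENCODE M21, matched by symbol. No batch is given in the labels. The genes, gene lists and tests were chosen with earlier results of these data known. Genes named from a list were those called (at most 5) and the 2 with the largest absolute log2 fold change. From each marker list, Ptprc and the 2 most abundant genes could be named. Ifnb1, Ifne, Mavs, Ptpn6, Siglech, Klk1, Pacsin1, Itgae, Cd52, Jak1, Jak2, Tyk2, Stat3, S100a8, S100a9 and the markers below the filter or called were named after their values were seen. At these totals 1 count is at most 0.0369 CPM. A few genes of the lists are counted but not reported by name here.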

Additional observations from a re-analysis of the deposited data

How the results depend on the processing

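Of the 10 genes, edgeR called 1, Irf3. DESeq2, with or without the filter, called 3. Scaling by library totals alone, Bonferroni adjustment in edgeR and a replicate block each gave 0, DESeq2 with Bonferroni, added after seeing the data, gave 1, leaving out 1 tumor gave 0 to 0, and the other alternatives gave 1 (median ratio and upper quartile scaling, quantile normalization, limma with pseudocounts of 0.1, 0.5 and 1, no filter, a filter at 5 CPM). Irf3 kept its direction throughout, and its adjusted p was 0.0512 with library totals and 0.0640 with the block. Whether the replicate numbers pair the tumors could not be decided, since deviations from a mean of 3 tumors constrain each other. The correlations of same-numbered tumors' deviations were 0.16, 0.06 and -0.02, and those of the other pairs ran from -0.37 to 0.35. Ifnar2 turned to -0.0036 without H89-treated tumor 3. The number of the 10 genes at an unadjusted p under 0.05 was 4 and stayed between 3 and 5. With the median transcript length, 5 genes in NaCl and 1 in H89-treated tumors kept their place in the order of levels. Over all genes tested, 208 were called, against 1393 in DESeq2, 80 with quantile normalization, 0 with the block and 0 to 12 without 1 tumor. Depth was not varied. Irf3, the lowest of the 10 genes in CPM, rested on 380 to 706 estimated counts a tumor.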
